A study of Homo sapiens with 2 samples.

Results

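The genes described here encode the proteins of the cytosolic ribosome, together with the paralogs of some of them. Members were chosen by symbol: protein-coding genes on the autosomes or the X chromosome named RPL or RPS followed by a number, RPLP0, RPLP1, RPLP2 or RPSA, without the RPS6K kinases and without pseudogenes. This rule took 86 of the 62700 genes in the deposited gene table. They comprised 77 canonical genes, of which 46 encode proteins of the large subunit and 31 proteins of the small subunit, and 8 paralogs (RPL3L, RPL7L1, RPL10L, RPL22L1, RPL26L1, RPL36AL, RPL39L and RPS27L). The remaining member, RPS19BP1, fits the symbol pattern only: its product binds the protein RPS19 and is not itself a ribosomal protein.

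The samples were 2 libraries of polyadenylated RNA from TCam-2, an established human cell line of seminoma type from a testicular germ cell tumour, carrying a DDX53-FLAG transgene delivered by transduction. DDX53 is an RNA helicase of the DEAD-box family. Both libraries bear the genotype label DDX53 overexpression and they form 1 group of 2 replicates. The promoter of the transgene and whether the cells were a clone are not given in the sources used here. TCam-2 cells with GFP-FLAG and untransduced cells, named as controls in the study's design, were not analysed here, so no value below is an effect of DDX53. Nothing in the labels says that the replicates were separate cultures, and differences between them may be technical.

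The libraries held 24137664 (replicate 1) and 22198929 (replicate 2) reads assigned to genes. All 7 seminoma and germ cell markers examined (POU5F1, NANOG, TFAP2C, PRDM1, SOX17, KIT and PDPN) were detected in both, with a summed level of 4652 and 4669 CPM (a gene's reads scaled to a fixed library total). Of other markers, AMH (testis somatic cells) had 145 and 129 reads, COL1A1 (fibroblasts) 224 and 249 reads and DDX4 (later germ cells) 7 and 4 reads. The other testis somatic markers examined were near 0, with 1 and 1 reads for INSL3 and 0 and 1 for CYP17A1. DCN, the other fibroblast marker, had 1 read in each library. PTPRC, a marker of blood cells, and the later germ cell genes DAZL, SYCP1 and PRM1 had 0 reads in both libraries, which allows at most 0.124 and 0.135 CPM. SOX2, a marker of embryonal carcinoma, had 24 reads in each library. The DDX53 gene had 146 and 147 reads. How the transgene's reads were counted was not tested.

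A cytosolic ribosome holds 1 copy of nearly every ribosomal protein, and the P stalk formed by RPLP0, RPLP1 and RPLP2 is the part with more than 1 copy of a protein. In vertebrates the messenger RNAs of ribosomal proteins typically begin with a C followed by a run of pyrimidines, the terminal oligopyrimidine (TOP) motif, through which mTOR signalling controls their translation. Many of these genes also carry small nucleolar RNAs (snoRNAs) in their introns. Paralogs such as RPL3L, of striated muscle, and RPL10L and RPL39L, of testicular germ cells, are known for expression in fewer tissues than their parents. Germ cell paralogs are therefore of interest in a germ cell tumour line.

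The coding sequences of parent and paralog show how far reads can tell each pair apart. Both are given for RPL39, a small protein beside the exit tunnel of the large subunit, and for RPS27, a zinc-binding protein of the small subunit, the first as the most similar of the 8 pairs and the second as a pair of equal length that differs mostly at the third base of codons. Capitals mark the bases at which the members of a pair differ. The sequences are from GENCODE release 29 on GRCh38, with the RPL39 gene at chrX:119786504-119791643 (minus strand), RPL39L at chr3:187120948-187180908 (minus strand), RPS27 at chr1:153990755-153992155 (plus strand) and RPS27L at chr15:63125872-63158021 (minus strand).
RPL39: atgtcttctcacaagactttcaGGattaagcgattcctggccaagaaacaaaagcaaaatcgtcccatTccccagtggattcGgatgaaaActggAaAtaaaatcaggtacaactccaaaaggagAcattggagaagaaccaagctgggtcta
RPL39L: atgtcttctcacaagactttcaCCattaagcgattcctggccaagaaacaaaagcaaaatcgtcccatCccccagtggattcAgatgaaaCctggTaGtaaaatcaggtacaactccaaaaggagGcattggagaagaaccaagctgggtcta
RPS27: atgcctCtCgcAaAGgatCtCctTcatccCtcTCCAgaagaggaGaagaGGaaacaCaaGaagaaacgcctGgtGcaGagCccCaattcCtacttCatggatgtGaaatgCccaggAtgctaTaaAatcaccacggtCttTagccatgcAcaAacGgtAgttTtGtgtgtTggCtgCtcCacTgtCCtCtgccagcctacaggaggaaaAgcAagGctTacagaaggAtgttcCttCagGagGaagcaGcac
RPS27L: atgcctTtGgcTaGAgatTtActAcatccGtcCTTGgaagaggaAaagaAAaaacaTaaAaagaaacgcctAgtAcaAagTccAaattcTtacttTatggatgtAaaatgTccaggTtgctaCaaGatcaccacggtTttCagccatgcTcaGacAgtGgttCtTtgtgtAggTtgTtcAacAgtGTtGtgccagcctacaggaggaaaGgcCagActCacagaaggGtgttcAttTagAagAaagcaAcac

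RPL39 and RPL39L, both with 153 coding bases, differed at 8 bases, 4 of them at the third base of a codon. RPS27 and RPS27L, both with 252 coding bases, differed at 56 bases, of which 48 were at the third base of a codon. Over all 8 pairs the identity of the coding sequences ran from 55.2% for RPL7L1 and 66.6% for RPL22L1, through 75.3% for RPL3L, 77.8% for RPS27L, 84.1% for RPL26L1, 89.3% for RPL10L and 89.9% for RPL36AL, to 94.8% for RPL39L. The longest identical stretch was 60 bases in the RPL36A pair, 50 bases in the RPL10 pair and 44 bases in the RPL39 pair. Reads within such stretches cannot be assigned by their coding sequence alone.

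The first bases of the messenger RNA were read from the RefSeq promoter table (GRCh38.p14), which held 68 of the 86 members. Each line gives 20 bases before a RefSeq start and the first 10 bases from it. They are shown, at 1 start each, for 7 parents and the 6 paralogs in the table and for RPLP0 and RPSA, the members with the largest called excess in replicate 2 over replicate 1. Capitals mark the run of pyrimidines that opens with a C at the start.
RPL3 (chr22:39319614-39319643, minus strand): gacccgtaaggccgaccggcctctaccggc
RPL10 (chrX:154398357-154398386, plus strand): atgcgcaggcggaggagcgcCTCTTTCCCT
RPL10L (chr14:46651772-46651801, minus strand): gcgcgcaggcgtagttaagagagcgcattt
RPL7L1 (chr6:42879596-42879625, plus strand): cgcgccggaagtgcggcgccgtagctagga
RPL39 (chrX:119791621-119791650, minus strand): gctcgttcttccgccagcttCCCTCCTCTT
RPL22 (chr1:6199586-6199615, minus strand): ctgcgtagttcgctcacctcCCTTTCTaac
RPL22L1 (chr3:170870186-170870215, minus strand): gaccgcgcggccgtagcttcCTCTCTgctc
RPL26 (chr17:8383184-8383213, minus strand): accggaagcagcgtgtagttCTCTTCCCTT
RPL26L1 (chr5:172958860-172958889, plus strand): agaggggcggggcggcggccacaaacccgc
RPL36A (chrX:101390991-101391020, plus strand): ttccgtttgcctcgcggtttCTTTCTTTCC
RPL36AL (chr14:49620617-49620646, minus strand): tccgcctgtttcttccctttcctgttaggc
RPS27 (chr1:153990742-153990771, plus strand): gcaggatttccgctttcgctCCTTTCCggc
RPS27L (chr15:63157468-63157497, minus strand): cccggaagttgatgccgagcgcagatcgct
RPLP0 (chr12:120201102-120201131, minus strand): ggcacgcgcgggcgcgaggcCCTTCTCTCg
RPSA (chr3:39406700-39406729, plus strand): cgtcatttcctgccgcctgtCTTTTCCgtg

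An oligopyrimidine start, defined as a C at the RefSeq start followed by at least 4 bases that are each C or T on the gene's strand, was found at 1 or more starts of 46 of the 62 canonical genes in the table (74.2%). Among the 6 paralogs in the table it was found in RPL22L1 only (16.7%). Of the 7 parents printed above, 6 hold it at the start shown; RPL10 also has starts in the table without it. The exception is RPL3, whose run at the start is 4 pyrimidines long, the C included. Of all 15843 protein-coding genes in the table, 6.24% held it. The share depended on the definition: with at least 7 pyrimidines after the C it was 38.2% of the 68 members against 2.37% of all protein-coding genes, and anywhere within 5 bases of the start it was 80.9% against 28.04%. RPL10A, at chr6:35468381-35468410 on the plus strand, has no such run at the listed start but has one within 5 bases. Such a match describes the letters of a listed start and does not show where transcription began in these cells.

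Together the 86 members took 7.95% of all reads in replicate 1, with a 95% Wilson interval from 7.94% to 7.96%. In replicate 2 they took 7.80%, with bounds of 7.79% and 7.81%, which gives a mean of 7.87% ± 0.105 (SD, n = 2). These intervals, and those below, cover counting error only, because the reads carry no molecular identifiers. In TPM, in which reads are divided by transcript length and scaled to a fixed total of transcripts, they took 23.8% and 23.3% of the total, a mean of 23.6% ± 0.328 (SD, n = 2). The 8 paralogs accounted for 0.0372% and 0.0364% of reads and 0.0840% and 0.0808% of TPM. Canonical genes thus carried nearly all of the signal of the group.

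A level of 1 CPM or more in each library was found for 82 of the 86 members: 75 of the 77 canonical genes, 6 of the 8 paralogs and RPS19BP1. The canonical genes that fell short were RPS10 and RPL36A, and the paralogs were RPL3L and RPL10L. By TPM, all 77 canonical genes exceeded 1 in both libraries and 75 exceeded 1000, a level that 142 of all 62700 genes reached. No paralog reached 1000 TPM. Of the 100 genes with the highest TPM, 63 were canonical ribosomal protein genes.

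**Figure D1:**
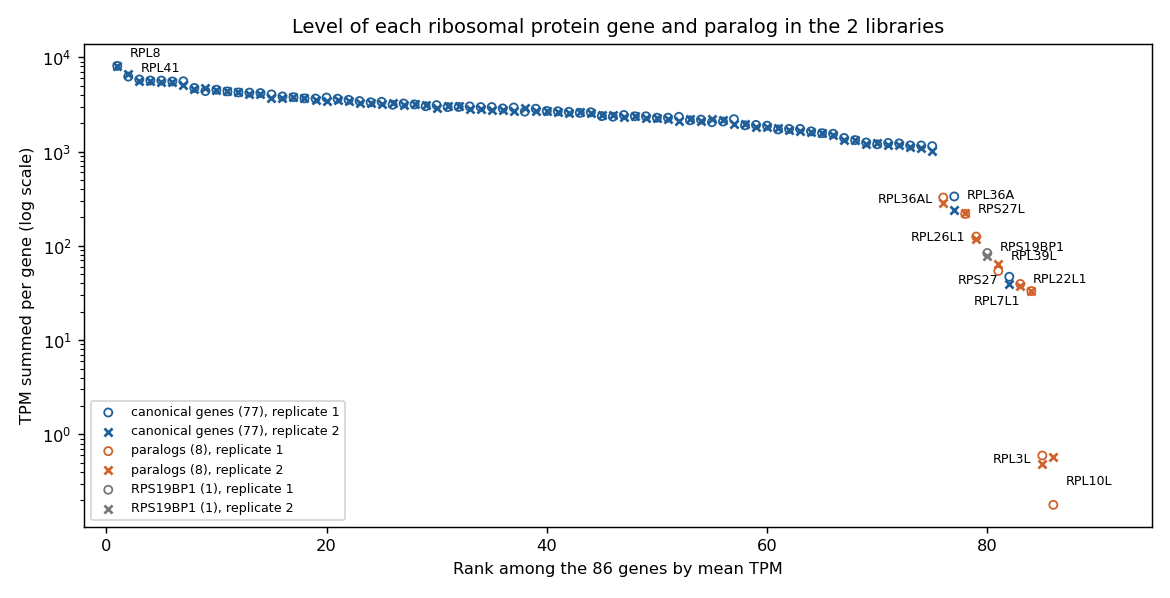
TPM summed per gene (y axis, log scale) of all 86 members ranked by their mean (x axis), with circles for replicate 1 and crosses for replicate 2, and colours for canonical genes, paralogs and RPS19BP1. The 75 canonical genes on the left form a continuous slope above 1000 TPM, and RPL36A and RPS27 lie among the paralogs.

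Canonical levels ran from 43.1 to 8086 TPM as the mean of the 2 libraries, with a median of 2757 and quartiles of 1940 and 3568, so the upper quartile was 1.84 times the lower. Large subunit genes had a median of 2597 TPM and small subunit genes 2854 TPM, and the quartiles of the subunits overlapped. The order of the genes was nearly the same in both libraries: across the 77 genes, which share library and length annotation, the log2 TPM values correlated with Pearson's r = 0.997 and Spearman's rho = 0.995.

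The highest canonical gene by TPM was RPL8, a core protein of the large subunit that contacts the peptidyl transferase centre, with 8090 TPM in replicate 1 and 8082 TPM in replicate 2. RPL41, the shortest ribosomal protein, followed with 6238 and 6628 TPM, but its reads fall over 4-fold short of that value: in CPM per kb of transcript it had 881 and 912, against 2725 and 2592 for RPS19. It was near that 4-fold limit, with 0.211 and 0.205 of the reads predicted from its TPM and full transcript length. RPS19, which is mutated in Diamond-Blackfan anaemia, had 5810 and 5554 TPM, and RPS18, of the head of the small subunit, 5660 and 5605 TPM. RPS20, also of the head, had 5657 and 5432 TPM. By TPM, RPL8 and RPL41 did not overlap with the genes below them, whereas the values of RPS19, RPS18 and RPS20 overlapped.

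The lowest canonical values were those of RPS27, with 47.0 and 39.3 TPM, but RPS27 also had 30548 and 26184 reads in the gene table, which is 1266 and 1180 CPM. The transcripts of RPS27 that could be matched to GENCODE release 29 were not annotated as protein-coding, and its coding transcript of that release was not among those with a TPM value, so its summed TPM lacks the main messenger RNA. RPL36A had 334 and 238 TPM with 22 and 24 reads. Next were RPL34 with 1141 and 1016 TPM, RPL22 with 1159 and 1100 TPM, and RPS28 with 1161 and 1107 TPM. RPL34, RPL22 and RPS28 overlapped with each other.

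The stalk genes did not share a TPM level. RPLP0, the scaffold of the P stalk, had 4376 and 4763 TPM, and RPLP2 had 4038 and 3698 TPM. RPLP1, the partner of RPLP2 in the stalk's dimers, had 1394 and 1329 TPM, below both of the others in each library. In CPM per kb of transcript the gap between RPLP1 and RPLP2 was smaller, with 870 and 836 for RPLP1 against 1027 and 930 for RPLP2. RPLP0, with 2626 and 2835, was far above both on that scale. RPLP2 had 0.380 and 0.374 of the reads predicted from its TPM, against 0.931 and 0.935 for RPLP1 and 0.895 and 0.885 for RPLP0. RPSA, a protein of the small subunit also known as the laminin receptor precursor, had 2650 and 2867 TPM. RPL10A and RPL12, of the large subunit, had 1715 and 1764 TPM and 3013 and 2857 TPM. RPL3, which lies near the peptidyl transferase centre, had 2571 and 2618 TPM, and RPS3, at the entry of the messenger RNA channel, 3537 and 3396 TPM.

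Among the paralogs, RPL36AL had the highest level, with 325 and 287 TPM from 2829 and 2343 reads. RPS27L, which is known as a target of p53, had 218 and 223 TPM from 1813 and 1744 reads. RPL26L1 had 125 and 119 TPM. RPL39L, the germ cell paralog of RPL39, had 54.0 and 64.0 TPM from 542 and 583 reads. RPL22L1 had 39.4 and 37.4 TPM from 287 and 244 reads, and RPL7L1, which takes part in the assembly of the large subunit, had 33.2 and 33.6 TPM from 2353 and 2123 reads on a much longer transcript. By TPM these 6 paralogs kept this order in both libraries, with no overlap between neighbours. In CPM per kb of transcript RPL7L1 (24.2 and 24.5) was above RPL22L1 (20.2 and 18.9).

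RPL3L and RPL10L were near the limit of detection. RPL3L had 23 and 17 reads, or 0.953 CPM (95% Wilson interval, 0.635 to 1.43) and 0.766 CPM (0.478 to 1.23). RPL10L, which replaces RPL10 in meiotic germ cells whose X chromosome is silent, had 3 and 6 reads, or 0.124 CPM (0.0423 to 0.365) and 0.270 CPM (0.124 to 0.590). In TPM they had 0.598 and 0.481 (RPL3L) and 0.179 and 0.583 (RPL10L), and their ranges overlapped. RPS19BP1 had 84.0 and 78.2 TPM.

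Each paralog was then set beside its parent as a share of the TPM of the pair. The paralog was below its parent in both libraries in 6 of the 8 pairs. RPL10L made up 0.0101% ± 0.00757 (SD, n = 2) of its pair, RPL3L 0.0208% ± 0.00345, RPL7L1 0.927% ± 0.0321, RPL39L 1.89% ± 0.193, RPL22L1 3.29% ± 0.00115 and RPL26L1 5.58% ± 0.275. RPL36A and RPL36AL were at similar TPM: the paralog made up 49.3% in replicate 1 and 54.7% in replicate 2, so the order of the pair changed between the libraries. RPS27L made up 82.3% and 85.0% of its pair by TPM, but RPS27 is the gene whose main transcript has no TPM value here.

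Reads in the gene table, divided by transcript length (weighted by TPM), gave another picture for 4 pairs. RPS27L then made up 4.66% and 5.32%, with the length of RPS27 taken from its matched noncoding transcripts. On the same scale the shares were as follows for 3 others: RPL22L1 made up 15.6% and 13.98%, RPL26L1 73.1% and 76.2%, and RPL36AL 98.8% and 98.4% of the pair. In these 3 pairs it is the parent whose reads fall far below its TPM: RPL22 had 2837 and 2775 reads, RPL26 331 and 247 reads and RPL36A 22 and 24 reads. RPL39L made up 3.18% and 3.66% on this scale. For RPL3L (0.0275% and 0.0218%), RPL7L1 (1.09% and 1.14%) and RPL10L (0.00727% and 0.0159%) the shares by this length were within the same order of magnitude as by TPM. Divided by the merged exons of the gene instead, the reads gave larger shares: 11.1% and 12.6% for RPL39L, 0.0723% and 0.0575% for RPL3L, 1.94% and 1.98% for RPL7L1, and 0.0522% and 0.114% for RPL10L. On all 3 scales 5 paralogs stayed below their parents in both libraries (RPL3L, RPL7L1, RPL10L, RPL22L1 and RPL39L).

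**Figure D2:**
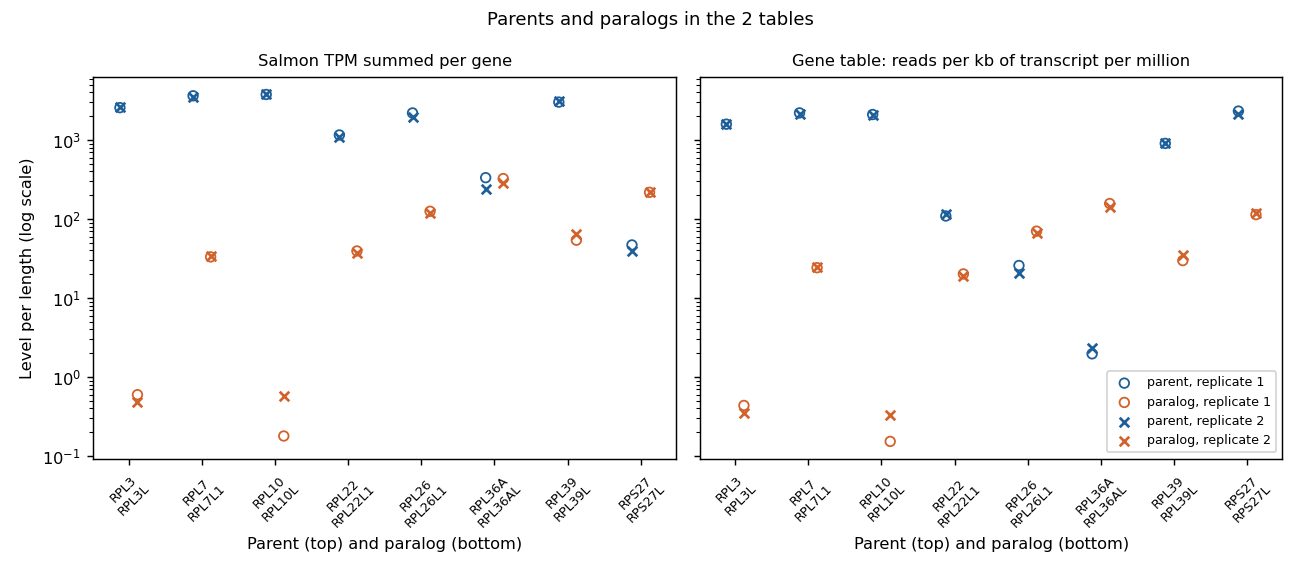
Level per length (y axis, log scale) of each parent (blue) and paralog (orange) in replicate 1 (circles) and replicate 2 (crosses), as TPM on the left and as CPM per kb of transcript on the right. RPL26 and RPL36A lie above or beside their paralogs on the left and below them on the right, while RPS27 lies below its paralog on the left and above it on the right.

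The difference between the tables was measured for every member by predicting its CPM from its TPM and transcript lengths and dividing the observed by the predicted CPM. In both libraries 8 of the 84 members with 10 TPM or more were more than 4-fold short of the prediction, against 5.66% of all 7432 genes at that level. In both libraries 1 member, RPS27, was more than 4-fold above it, against 0.592% of those genes. RPS10, of the small subunit's head, had 18 and 25 reads where its TPM predicted 1059 and 1050 CPM, a ratio of 0.000704 and 0.00107. RPL17 had 110 and 93 reads, with ratios of 0.00313 and 0.00295. RPL36A had ratios of 0.00878 and 0.0147, RPL26 0.0175 and 0.0160, RPS15A 0.0600 and 0.0661, RPL22 0.141 and 0.157, and RPL41 0.211 and 0.205. RPS27 had ratios of 73.9 and 80.0.

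All 8 short genes are among the 77 canonical genes and none is among the 6 paralogs at that level, which are too few for a comparison. In GENCODE release 29, part of the exons of RPS10 (39.4%), RPL17 (32.7%) and RPL36A (8.40%) overlaps a readthrough gene on the same strand, RPS10-NUDT3, RPL17-C18orf32 and RPL36A-HNRNPH2. Each of these readthrough genes had 0 reads in both libraries in the gene table, while their summed TPM values were 7.28 and 7.78, 39.5 and 45.7, and 88.9 and 71.3. No base of the exons of RPL41 overlaps another gene on its strand. The part that overlap or similar copies play in the shortfall was not tested, and the levels of these 8 genes differ by the stated ratios according to the table used. Over all 84 members the median log2 ratio of observed to predicted CPM was -0.36 and -0.39, against 0.07 and 0.08 for all 7432 genes. The prediction takes the full transcript length, and the members' transcripts are short. The median length of the highest transcript was 651.5 bases, against 2306 bases over protein-coding genes with at least 10 TPM. The part of length in these ratios was not tested.

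**Figure D3:**
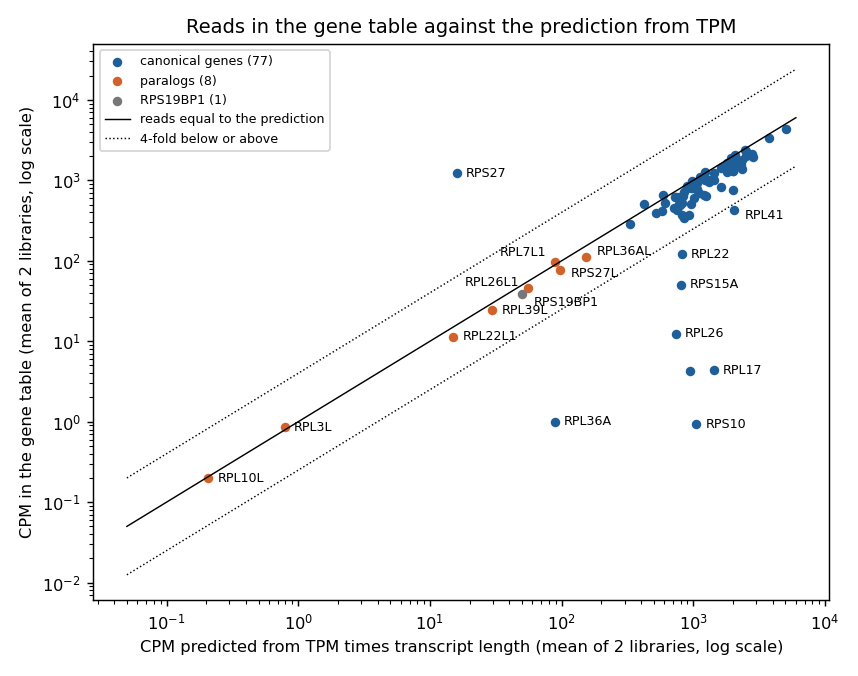
CPM observed in the gene table (y axis) against CPM predicted from TPM and transcript length (x axis), both as means of the 2 libraries on log scales, with a solid line at equality and dotted lines 4-fold away. The canonical genes from RPL41 down to RPS10 lie below the lower dotted line and RPS27 lies above the upper one.

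Transcript use was narrow in most members. The median share of a gene's TPM in its highest transcript was 92.9% and 93.2% over the 84 members with at least 10 TPM, against 72.4% and 72.8% over 7255 protein-coding genes at that level. The highest transcript was the same in both libraries in all 83 members with more than 1 transcript, whereas it differed in 6.88% of 6930 such protein-coding genes. These backgrounds start at 10 TPM and are not matched to the members in level, and the part of level was not tested. The members' highest transcripts were short, with a median length of 651.5 bases and 5 exons, against 2306 bases and 8 exons.

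Transcripts annotated as other than protein-coding in GENCODE release 29 took 6.74% ± 0.0988 (SD, n = 2) of the members' TPM, against 9.44% ± 0.161 over all protein-coding genes. Of the members' TPM, 4.15% ± 0.140 lay in transcripts with a retained intron, 1.79% ± 0.0544 in processed transcripts and 0.809% ± 0.0134 in targets of nonsense-mediated decay, a pathway that removes messages with an early stop codon. The median over the 84 members was 0.495% of a gene's TPM, against 3.97% over the 7255 genes. The sum thus came from a small number of members.

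The most extreme were RPS27, whose matched transcripts were all of this kind, and RPL14, with 92.9% and 93.5% of its TPM outside coding transcripts. Nearly all of that was RPL14-208, a transcript annotated with a retained intron (92.8% and 93.2% of the gene). RPS28 had 77.4% and 79.6%, mostly in RPS28-201 (76.8% and 78.9%), also annotated with a retained intron, and RPL37 had 76.0% and 77.2%, almost entirely in the processed transcript RPL37-202. RPL22L1 was the paralog with the largest share, 65.3% and 60.2%. Its transcript RPL22L1-204, annotated as a target of nonsense-mediated decay, held 58.0% and 60.2% of its TPM.

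RPL3, RPL10A and RPL12 are known to limit their own messages by splicing into targets of nonsense-mediated decay, and RPS3 was read beside them. RPS3 had 39.1% and 39.8% of its TPM outside coding transcripts, of which RPS3-218, annotated as such a target, held 25.5% and 24.1%, and its coding transcript RPS3-203 held 51.3% and 51.6%. The corresponding mean shares outside coding transcripts were 2.25% for RPL10A, 0.730% for RPL12 and 0.514% for RPL3. Transcripts annotated as targets of nonsense-mediated decay held 0% and 0.0416% of the TPM of RPL3. No matched transcript of RPL10A or RPL12 has that annotation. Their share of 0% in both libraries was therefore fixed in advance and does not show that such transcripts were absent. These annotations are those of release 29, and 50288 of the 251955 transcripts with a TPM value had no match in it. The reads behind a single transcript are not known from TPM.

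**Figure D4:**
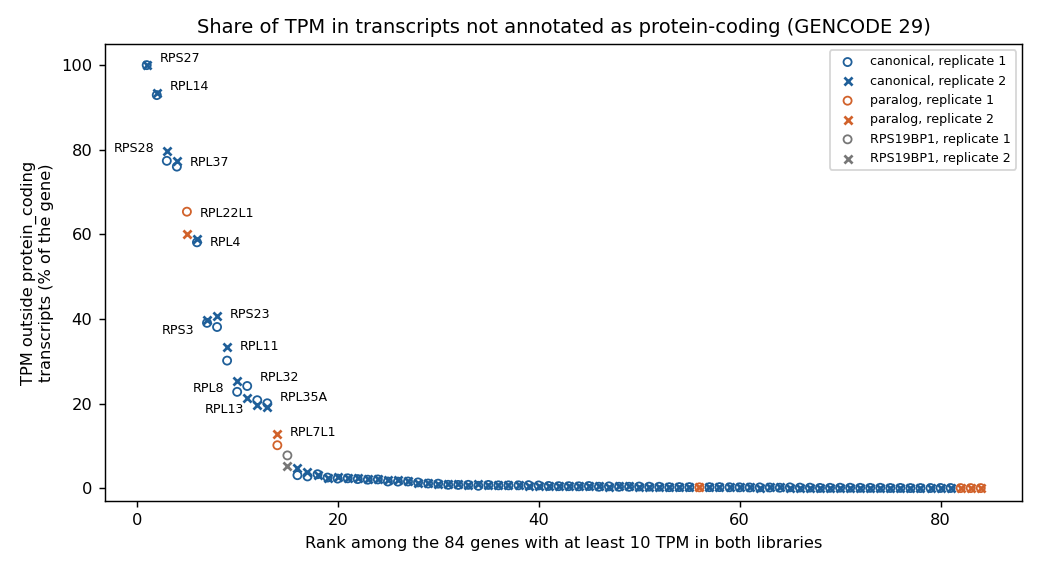
Share of each gene's TPM in transcripts not annotated as protein-coding (y axis, percent) for the 84 members with a TPM of 10 or more in each library, ranked by their mean (x axis), with circles for replicate 1 and crosses for replicate 2. The shares exceed 10% in the 14 labelled genes and lie near 0% in most others.

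Of the 77 canonical genes, 28 (36.4%) hold at least 1 annotated snoRNA gene within their bounds on the same strand, 60 snoRNA genes in all, with up to 5 in a gene, as in RPL4. None of the 8 paralogs does. Of the 7255 protein-coding genes with at least 10 TPM, 2.03% do. The members lie on 21 chromosomes, with 12 on chromosome 19 and 9 on chromosome 3.

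The difference between the 2 libraries was tested for each gene with edgeR's exact binomial test on reads with TMM library sizes, adjusted by Benjamini and Hochberg over 15299 genes. It compares these 2 libraries and no conditions, and has no replicate check. At an adjusted p under 0.05 it called 43 of the 85 members tested, 10 higher and 33 lower in replicate 2. Over all genes tested it called 13.1%, of which 6.78% were higher and 6.35% lower as shares of all tested. The test gains power with depth, so genes whose mean was 100 CPM or more are the closer background: it called 37.9% of these (20.5% higher, 17.4% lower) and 43 of the 72 members at that level. Many of these members lie far above 100 CPM, so this background is not matched to them in depth.

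The differences were small. Among the 82 members with a mean of 1 CPM or more, the median log2 difference of replicate 2 from replicate 1, computed as log2 of CPM + 1, was -0.05, and 62 lay below 0. Over 13898 genes the median was -0.01. Of the genes tested, 63 of 85 members and 52.1% of all lay below 0, and among those at 100 CPM or more 54 of 72 members and 51.3% of all did. Regardless of sign, the median size of the log2 difference at 100 CPM or more was 0.054 over the 72 members and 0.059 over all 2161 genes.

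RPLP0 was the member with the largest called excess in replicate 2. It had 3188 CPM in replicate 1 and 3443 CPM in replicate 2, a log2 difference of 0.11 (adjusted p = 7.70e-56, edgeR exact binomial test). RPSA was close to it, with 1827 and 1970 CPM, a log2 difference of 0.11 (adjusted p = 1.04e-30, edgeR exact binomial test). RPL9 had 996 and 1043 CPM (log2 difference 0.07) and RPL24 542 and 564 CPM (0.06), both proteins of the large subunit.

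In the other direction RPL37A had 734 and 661 CPM, a log2 difference of -0.15 (adjusted p = 9.15e-17, edgeR exact binomial test). RPL36 had 539 and 485 CPM (-0.15), RPLP2 795 and 718 CPM (-0.15) and RPL34 299 and 272 CPM (-0.14). RPL36AL, with 117 and 106 CPM, was the only paralog called, at a log2 difference of -0.15 (adjusted p = 0.00549, edgeR exact binomial test). RPLP0 and RPLP2, which share the P stalk, thus differed between the libraries in opposite directions. RPL39L, with 22.5 and 26.3 CPM, a log2 difference of 0.22, had an adjusted p of 0.0503 in the edgeR exact binomial test and was not called.

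The log2 difference moved with transcript length. Across the 68 canonical genes with reads within 4-fold of the prediction, which all share the same 2 libraries, Spearman's rho between length and difference was 0.37, and across 2156 genes at 100 CPM or more it was -0.16. The 34 shorter of these canonical genes (299 to 685 bases) had a median difference of -0.06, with 29 below 0. The 34 longer ones (691 to 1525 bases) had a median of -0.03, with 23 below 0. The part of length in the differences was not tested.

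**Figure D5:**
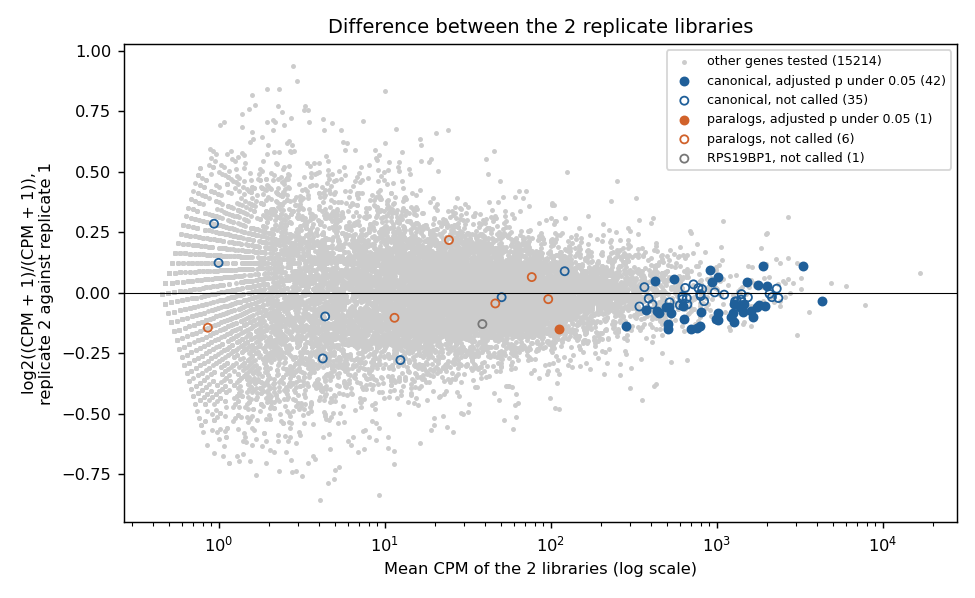
Log2 difference of replicate 2 from replicate 1 (y axis) against the mean CPM (x axis, log scale) for 15299 genes tested, with members in colour, filled where the adjusted p was under 0.05. Filled members lie between -0.15 and 0.11, mostly below 0, within the spread of the other genes in grey.

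Other genes of ribosome production were taken from lists. FAU, which encodes a ribosomal protein outside the symbol rule, had 1926 and 1858 TPM, with reads at 0.216 and 0.212 of the number that this predicts, and RACK1, a scaffold bound to the small subunit, had 2784 and 2772 TPM, both within the range of the canonical genes. All 25 ribosome assembly factors were detected, with a median of 65.4 TPM. NPM1, the nucleolar protein nucleophosmin, was highest with 2666 and 2568 TPM, followed by FBL, the snoRNA-guided methyltransferase fibrillarin, with 459 and 476 TPM. POLR1A and POLR1B, the largest subunits of RNA polymerase I, were lowest with 11.03 and 10.52 TPM and 15.3 and 14.1 TPM. Of these 25 factors 0 were called higher and 6 lower in replicate 2, against 6.78% and 6.35% of all genes tested, or 20.5% and 17.4% of those at 100 CPM or more, which is the background for the counts of the next lists too.

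The 10 chaperones and regulators of ribosomal proteins ran from 5.54 to 1400 TPM, with BTF3 and NACA, which bind nascent chains at the ribosome, at the top (1377 and 1422 TPM and 893 and 796 TPM). MYC, which drives ribosome production, had 8.05 and 9.85 TPM, and HEATR3, an importer of RPL5, 4.82 and 6.26 TPM. In this list 1 was called higher and 3 lower. The 17 other genes known for TOP messages had a median of 982 TPM, from EIF3H (318 and 301 TPM) and EIF4B (406 and 412 TPM) to TPT1 (2852 and 2935 TPM) and EEF1A1 (3912 and 3396 TPM, with reads 7.65 and 9.25 times the number that this TPM predicts). Of the 16 tested 4 were called higher and 5 lower. The 78 proteins of the mitochondrial ribosome, encoded in the nucleus and assembled in the mitochondrion, had a median of 87.2 TPM and none above 476 TPM. Of the 76 tested, 3 were called higher and 5 lower. By TPM MRPL51 (472 and 479) and MRPL12 (321 and 311) were the highest of these, and MRPS25 (7.86 and 8.41) and MRPS22 (9.39 and 9.71) the lowest. The reads went against this order for MRPL12, with 11.7 and 10.6 CPM (0.0531 and 0.0494 of the prediction), and MRPS22, with 54.8 and 56.6 CPM (7.73 and 7.75 times the prediction).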

How the data were processed

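2 tables were used: a gene table and a transcript table, each with 1 column per library. Per the submitters' processing notes, Trim Galore 0.6.10, STAR 2.7.11a, Salmon 1.10.2 and DESeq2 were used with GRCh38; the counter and annotation are not given in the sources used here. The gene table, deposited as normalized values, holds a scaled signal: every value is a whole multiple of 1 step per library. Dividing by that step gave whole reads for 100% of values above 0 (tolerance of 0.001 reads), and CPM was computed from these. The transcript table holds TPM, deposited by the authors, which was summed per gene over the 201667 transcripts matched to GENCODE release 29 (94.8% of TPM in each library). Predicted CPM is the TPM times transcript length, scaled to the same total as CPM.

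Reads were compared with edgeR 4.0.16 (R 4.3.3) by its exact binomial test, with size factors of DESeq2 1.42.0 as an alternative. The test was tried on simulated Poisson counts. These hold no spread beyond counting error, so the trial cannot check calls between real libraries. Genes were named by rule: all paralogs and parents, the 5 highest and 5 lowest canonical genes by TPM, the P stalk genes, RPSA, the 5 largest called differences in each direction, genes more than 4-fold short, the 5 largest noncoding shares, and RPL3, RPL10A, RPL12 and RPS3; from lists, the 2 highest and 2 lowest. Some of the genes that this rule names are not reported here. Members and lists were chosen with earlier results of these data known. The design assumed normalized values in the gene table, and recovered reads were used where a count was needed.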

Additional observations from a re-analysis of the deposited data

How the results depend on the processing

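No paired analysis was possible because DDX53 cells are the only group analysed here. Of the alternative values of the summary results, 30 kept to the reported value, within 1.5 times for counts or within the spread for other values, and 13 did not. This tally is no measure of robustness. For a mean of 2 libraries, each library alone always lies within their SD, so leaving out a replicate could not fail. For the median log2 difference, -0.05, the spread was the SD over members, 0.078, which is larger than the value itself. Leaving out a replicate gave 82 to 84 members detected, 7.80% to 7.95% of reads, a median paralog share of 2.52% to 2.66%, 6 to 7 paralogs below the parent, a quartile ratio of 1.80 to 1.90, 6.67% to 6.81% of TPM outside coding transcripts, and 8 members short of the prediction in each. The members' share was 7.87% of reads, 23.6% of matched TPM and 8.01% of reads without mitochondrial DNA genes. The median paralog share over the 8 pairs, 2.59%, was 6.89% per kb of merged exons, 4.21% per kb of transcript length (added after seeing the data) and 1.25% from coding transcripts alone, without RPS27L. Per kb of transcript length and of merged exons, RPL26L1 went from 5.58% to 74.7% and 89.0% of its pair, RPL36AL from 52.0% to 98.6% and 99.8%, and RPS27L from 83.6% to 4.99% and 0.709%, so that RPL26L1 and RPS27L changed sides. The quartile ratio among canonical genes, 1.84, was 2.69 per kb of merged exons, 2.07 per kb of transcript length (added), 2.05 from coding transcripts and 1.74 for the genes within 4-fold of the prediction. The share of TPM outside coding transcripts, 6.74%, was 0.495% as a median over members. The share with an oligopyrimidine start, 69.1% of 68 members, was 38.2% with at least 7 pyrimidines, 80.9% within 5 bases and 26.7% at the first base of the highest GENCODE transcript (added). This last share is of 86 members, against 3.03% of 7255 protein-coding genes with at least 10 TPM. With 200 bases taken off every transcript length, 7 members were more than 4-fold short of the prediction. At full length 12 members were more than 2-fold short. Calls between the libraries ran from 41 to 48 members. Depth limits RPL10L and RPL3L, and 2 libraries of 1 group cannot separate biological from technical spread. The cause of these shifts was not tested.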

Other observations

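Pseudogenes of ribosomal protein genes, left out of the members, took few reads: of 1511 identifiers with such a symbol, 214 and 213 had a read, and their 11746 and 11929 reads equalled 0.612% and 0.689% of the members' reads. RPS2P5 alone had 6072 and 5450 of them. By TPM the pseudogenes summed to 4821 and 4509, or 2.14% and 2.04% of the members' TPM. Their TPM was thus lower in replicate 2, while their reads were more. In the edgeR exact binomial test 58 pseudogenes were tested, of which 11 were called higher and 0 lower in replicate 2 (6.78% and 6.35% of all genes tested), with a median log2 difference of 0.21 and 40 above 0, while 33 of the 43 members called were lower. RPL41P1, a copy of RPL41, had 1053 and 1149 reads but 0 TPM in both libraries, beside RPL41 itself at 10090 and 9604 reads.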
